A study of Mus musculus with 58 samples.

Results

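The 9 genes described here are leptomeningeal fibroblast and collagen genes, namely Nupr1, Igfbp2, Fmod, Ogn, Dcn, Lum, Col1a1, Col1a2 and Col6a3. They were taken from the table by their symbols, and they are 9 of the 18088 genes of the table. All 9 were among the 16606 genes with a mean normalised count of at least 10, the genes that were tested. They were followed through all 58 libraries of a study of mouse prefrontal cortex.

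The study measured polyadenylated RNA by stranded sequencing in C57BL/6J mice that were heterozygous for a Tbl1xr1 knock-in (HT) or wild-type (WT). Tbl1xr1 encodes a subunit of nuclear receptor corepressor complexes. The pups took in fluoxetine, a serotonin reuptake inhibitor, or lithium, a mood stabiliser, or vehicle with the milk of their mothers. The drug was given on postnatal days 3 to 24, for 3 weeks, and the tissue was taken on day 25.

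Genotype, treatment and sex gave 12 groups. They were HT fluoxetine, HT lithium and HT vehicle, and WT fluoxetine, WT lithium and WT vehicle, each with females and males. There were 5 libraries in each group, but only 4 in each sex of WT lithium. HT animals carry the altered allele on 1 chromosome, and reads from the altered and the normal allele are not told apart. All groups share the strain, the age and feeding by a dam. The labels give neither dam nor litter, so a drug and the litter that received it cannot be told apart. Whether every library came from its own animal is not stated either, so the p-values rest on variation among libraries, which may be technical.

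The leptomeninges are the arachnoid and the pia, thin sheets that cover the cortex and follow its larger vessels inward. Their fibroblasts make the collagen fibrils of the brain surface and the proteoglycans that bind to them. Fibrils of type I collagen are built from chains of Col1a1 and Col1a2, and small leucine-rich proteoglycans (fibromodulin, osteoglycin, decorin and lumican) attach to fibrils and set their thickness and spacing. Type VI collagen forms fine beaded filaments beside them. A dissected piece of cortex carries some of this covering, so the amount of these transcripts depends on the tissue taken as well as on the cells in it. In bulk tissue, fewer cells of a type and less RNA per cell cannot be told apart.

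The libraries held between 22.9 and 35.0 M reads that were assigned to genes, with a median of 26.7 M. Levels are given as normalised counts, in which the authors scaled the reads of a library by its size factor. Tbl1xr1, the altered gene, had between 2276 and 2747 normalised counts in HT libraries, with a median of 2524, against 1817 to 2279 in WT libraries, with a median of 2068. Its ranges overlapped by 1 narrow band, and HT was higher by 0.29 ± 0.020 on the log2 scale (SE, adjusted p = 1.57e-15, limma). The 24 measured leptomeningeal markers that are not among the 9 genes were present in every library. Their summed count ran from 8660 to 14705 in HT libraries and from 9162 to 14901 in WT libraries. Transcripts of the choroid plexus, the tissue that makes cerebrospinal fluid, were far above their median of 263.7 in 2 libraries, at 25759 in HT lithium male 1 and 33382 in WT vehicle female 4. The 8 markers of the olfactory bulb, which lies next to the prefrontal cortex, summed to between 675 and 19761 in HT libraries, with a median of 1636, against 767 to 25592 in WT libraries, with a median of 5172.

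Per kilobase of transcript, Igfbp2 was the most abundant of the 9 genes and Col6a3 the least. Igfbp2 encodes a secreted protein that binds insulin-like growth factors, and it averaged 796 normalised counts per kilobase over the 58 libraries. Dcn, the gene of decorin, followed at 267, and Nupr1, which encodes a small nuclear protein induced by stress, at 252. Dcn was above Nupr1 in only 34 of the 58 libraries, and the next steps, Nupr1 over Fmod in 44 and Fmod over Col1a2 in 35, were also crossed by many libraries. Fmod, the gene of fibromodulin, averaged 212 and Col1a2 averaged 202 normalised counts per kilobase. Ogn (osteoglycin) averaged 118, Col1a1 averaged 93.9, Lum (lumican) averaged 35.3 and Col6a3 averaged 15.2. The order of these last genes was firmer. Col1a2 was above Ogn in 57 libraries, Ogn above Col1a1 in 51, and Col1a1 above Lum and Lum above Col6a3 in all 58.

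**Figure D1:**
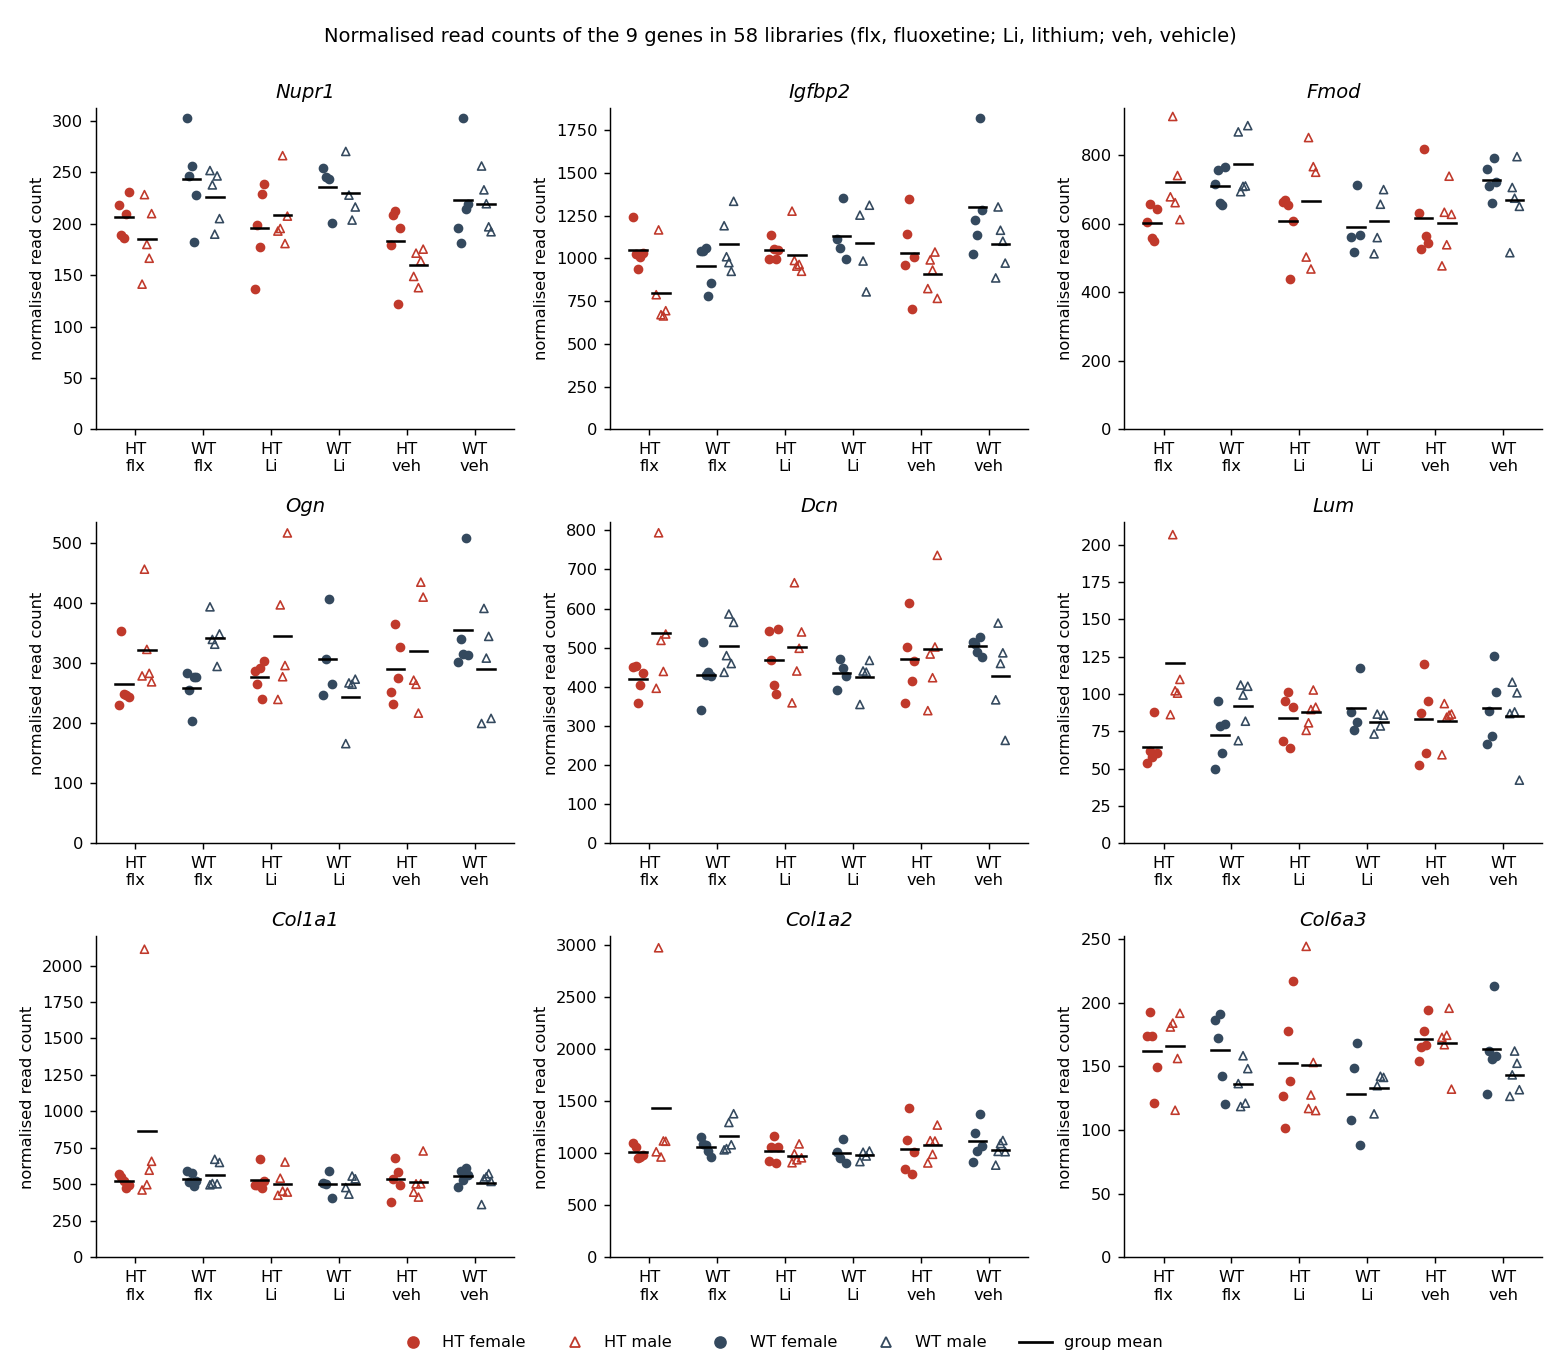
Normalised count (linear axis from 0, 1 panel per gene) in every library, by genotype and treatment, with HT left of WT within each treatment. Filled circles are females, open triangles are males, red is HT, blue is WT and bars are group means. Nupr1 was lower in HT than in WT as a whole, while the single high point of Col1a1 (2112) and Col1a2 (2973) belongs to HT fluoxetine male 2.

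The libraries that stood apart were examined before any comparison. HT fluoxetine male 2 had the highest sum over the 9 genes, 9035 normalised counts, against a median of 4462 over all libraries. The excess lay mostly in type I collagen. Col1a1 had 2112 normalised counts there, the next highest library had 729.6, and the median of the others was 520.8. Col1a2 had 2973 and the next highest library 1434. Lum, Dcn and Fmod were also at their highest in that library, with 206.7, 793.7 and 913.6. Igfbp2, Nupr1 and Col6a3 were not, and ranked 13, 19 and 10 from the top among the 58 libraries.

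The same library had 935.3 normalised counts of Col3a1, another fibril-forming collagen, against a median of 408.3, and 159.9 of H19, an imprinted non-coding RNA, against 22.3. In all, 12 genes exceeded every other library by more than 0.5 on the log2 scale, and 4 of them, Col1a1, Col1a2, H19 and H2-Q7, by more than 1. Such a count was not particular to this library. HT lithium male 1 also had 12 such genes, 5 of them by more than 1, and WT fluoxetine male 5 had 11. H2-Q7 is a class I histocompatibility gene with near-identical copies, so its reads may have been split among them. The summed leptomeningeal markers were 14159 in this library, the fourth highest value, and those of border-associated macrophages 671.5, the third highest. Class I histocompatibility and interferon-induced genes were at their highest, 5863, against 5596 in HT vehicle female 4, the next library, and a median of 3756. That list was added after the values had been seen, so its rank is a description only. Markers of bone-forming cells, another source of type I collagen, summed to 10131, rank 11, of which Sparc, a gene of many cell types, made up 9126. Of the markers nearer to bone, Ibsp (bone sialoprotein) was at its highest with 24.0 against a median of 7.59. Sp7, a transcription factor of osteoblasts, ranked 10 with 293.5 against 81.4. Runx2, another such factor, ranked only 21 with 308.4 against 298.5. Alpl, which is also on the list of arachnoid and dura markers, ranked 4 with 229.6 against 182.4. Markers of mural cells ranked 46, arachnoid and dura markers 25, and choroid plexus markers 11. Olfactory bulb markers ranked 6, with 15092 against a median of 3228 over all libraries. The part of these other cell types in the high collagen counts was not tested.

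WT vehicle female 4 was high in another set of the genes. It had the highest sum of choroid plexus markers (33382) and of mural markers (9505), and the second highest sum over the 9 genes (6194). Its sum of leptomeningeal markers, 14901, was also the highest, but 5467 of it was Igf2, which was at its highest there. Without Igf2 the sum was 9434, rank 9, below the 10257 of HT fluoxetine male 2, rank 5, and beside a median of 7950.4. Igfbp2 reached its highest value there, 1821, and Ogn and Lum their second highest, 509.4 and 125.2. Col1a1 had 615.3 normalised counts there, well below HT fluoxetine male 2. HT lithium male 1 also carried much choroid plexus RNA (25759), but it did not stand high in the leptomeningeal markers. Its leptomeningeal markers summed to 11021, rank 25, or to 6669.6, rank 55, without Igf2, and Fmod, Dcn, Col1a1 and Col1a2 ranked 55, 53, 54 and 52 from the top. Igfbp2, with 1277, ranked 8 in that library, and Col6a3, with 244.1, was at its highest. Ttr, the transthyretin gene that defines choroid plexus epithelium, had 22675 normalised counts in HT lithium male 1 and 29769 in WT vehicle female 4, but 5.71 in HT fluoxetine male 2.

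**Figure D2:**
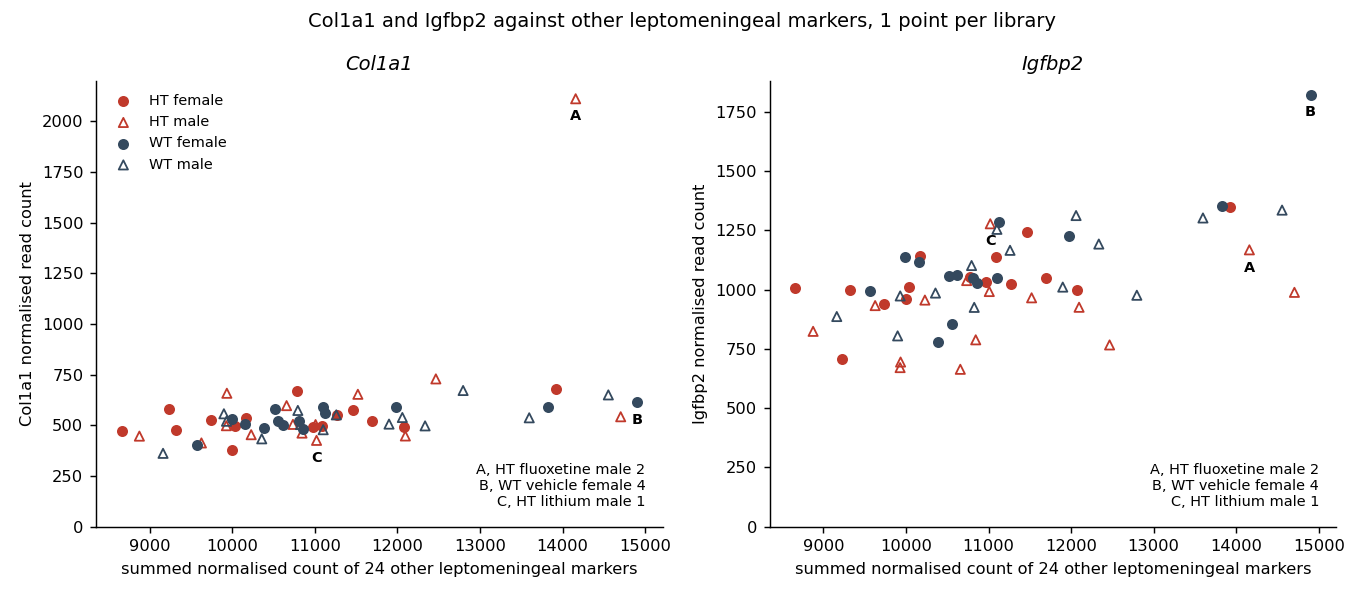
Normalised count of Col1a1 and of Igfbp2 (vertical axes) against the summed normalised count of the 24 other leptomeningeal markers (horizontal axis), 1 point per library, with A for HT fluoxetine male 2, B for WT vehicle female 4 and C for HT lithium male 1. A lies far above every other library for Col1a1 (2112), and B is the highest for Igfbp2 (1821). On the horizontal axis B (14901) lies above A (14159), an order that rests on Igf2, as without it A had 10257 and B 9434.

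Nupr1 was the only one of the 9 genes that passed the test between genotypes. Nupr1 (ENSMUSG00000030717; GRCm38 chromosome 7, 126623249 to 126630861, minus strand) encodes a small chromatin-associated protein that is induced when cells are short of amino acids or when the endoplasmic reticulum is stressed. The stress factor ATF4 binds a composite element with C/EBP proteins in many such genes, and the core of that element is shown here because the promoter of Nupr1 holds it. The sequence is RefSeq, build GRCm38.p6, chr7:126625471-126625720 on the minus strand, the 250 bases before the start of transcription written 5′ to 3′. That start is the one of the promoter entry, and it lies inside the gene coordinates given above. The capitals mark the reverse complement of TGATGNAA, 110 to 103 bases before the start.
Nupr1: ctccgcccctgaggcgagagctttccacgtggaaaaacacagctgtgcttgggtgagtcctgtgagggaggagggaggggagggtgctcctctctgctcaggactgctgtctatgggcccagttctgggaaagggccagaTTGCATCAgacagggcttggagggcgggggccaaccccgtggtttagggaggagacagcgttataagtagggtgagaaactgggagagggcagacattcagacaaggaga
On either strand, TGATGNAA occurred in 1134 of 32851 such windows (3.452%). None of the other members with a promoter entry held it, while Asns, Atf3 and Chac1 of the stress-response list did. A match of letters is a description and not a bound site.

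Nupr1 was lower in HT than in WT. Its normalised counts in the 30 HT libraries ran from 121.7 to 266.3 with a median of 191.1, against 181.4 to 303.3 with a median of 228.2 in the 28 WT libraries. The ranges overlapped, but 27 of the 30 HT libraries lay below the mean of the WT libraries of their own sex and treatment. Over all treatments Nupr1 fell by 0.28 ± 0.060 on the log2 scale (SE), a 0.823-fold level in HT, with an adjusted p of 0.00825 by limma. It was the 1 of 9 members called in this comparison, where 1.07% of all tested genes were called (0.5% lower in HT). By edgeR and DESeq2 on the recovered reads, the adjusted p was 0.00823 and 0.00129.

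Within single treatments the same gene did not pass. Under vehicle, HT males had 148.8, 171.4, 137.9, 163.9 and 175.4 normalised counts, against 256.2, 233.1, 219.6, 197.1 and 192.3 in WT males. HT females had 179.4, 208.8, 212.3, 121.7 and 195.6, against 195.9, 181.4, 303.2, 214.3 and 219.5 in WT females. The male groups did not overlap, while the female groups did. Under vehicle the difference was -0.37 ± 0.102 (0.774-fold, unadjusted p = 0.000695, adjusted p = 0.354, limma). Only 0.0181% of tested genes were called there.

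Under fluoxetine the Nupr1 difference was -0.26 ± 0.102 (adjusted p = 0.153, limma), with a mean of 196 ± 28.7 normalised counts in HT and 234.9 ± 35.7 in WT (SD, n = 10 libraries each). Under lithium it was -0.21 ± 0.108 (adjusted p = 0.915, limma), with 202.5 ± 36.1 in HT (SD, n = 10 libraries) and 232.8 ± 24.7 in WT (SD, n = 8 libraries). In these comparisons 0.994% and 0.012% of tested genes were called, and none of the 9 was among them. Leaving out any 1 of the 58 libraries kept the call over all treatments, with a log2 difference between -0.30 and -0.26. Without the vehicle groups it was -0.24 and no longer passed (adjusted p = 0.225, limma).

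Of 12 other stress-response genes that were measured, 11 were tested, as Trib3 was below the minimum mean. None of the 11 was called between the genotypes, and 6 lay below 0. All 8 olfactory bulb markers were lower in HT, with a median log2 difference of -0.99 and none called. With their mean log2 level as a covariate Nupr1 stayed at -0.29 (adjusted p = 0.0108, limma). With the mean log2 level of the other leptomeningeal markers as a covariate it was -0.28 (adjusted p = 0.00987, limma).

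Igfbp2 (ENSMUSG00000039323; chromosome 1, 72824503 to 72852474, plus strand) had lower values in HT but did not pass. Its normalised counts ran from 663.7 to 1348 with a median of 994.4 in HT, against 778.6 to 1821 with a median of 1059 in WT. The genotypes overlapped over most of their range, and 22 of 30 HT libraries lay below the matching WT mean. The difference over all treatments was -0.18 ± 0.062 on the log2 scale (0.882-fold, unadjusted p = 0.00492, adjusted p = 0.133, limma). An unadjusted p under 0.05 was reached by 15.2% of tested genes in this comparison.

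Under vehicle the Igfbp2 difference was -0.29 ± 0.105 (adjusted p = 0.701, limma), and -0.23 without WT vehicle female 4, the library rich in choroid plexus RNA. Under fluoxetine the genotypes stood in opposite order in the sexes. HT males had 788.0, 1167, 670.9, 663.7 and 694.4 normalised counts, against 1192, 1010.2, 975.8, 924.7 and 1335 in WT males. HT females had 1243, 1025, 940.5, 1007 and 1032, against 1046, 1046, 1059, 778.6 and 853.8 in WT females. All HT males but the collagen-rich male 2 lay below every WT male, while the female groups overlapped. The log2 difference was 0.14 ± 0.148 in females and -0.47 ± 0.148 in males. The difference between the sexes was 0.61 ± 0.210 (unadjusted p = 0.00552, adjusted p = 0.223, limma), and 0.75 ± 0.200 without HT fluoxetine male 2 (adjusted p = 0.0867, limma).

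None of the 4 small leucine-rich proteoglycans was called between the genotypes. Fmod (ENSMUSG00000041559; chromosome 1, 134037254 to 134048277, plus strand) encodes fibromodulin, which binds fibrillar collagen and takes part in its cross-linking. Ogn (ENSMUSG00000021390; chromosome 13, 49608046 to 49624501, plus strand) encodes osteoglycin. Dcn (ENSMUSG00000019929; chromosome 10, 97479609 to 97518143, plus strand) encodes decorin, which also binds transforming growth factor beta. Lum (ENSMUSG00000036446; chromosome 10, 97565128 to 97572703, plus strand) encodes lumican and lies 47.0 kb from Dcn. The starts of transcription of Fmod and Ogn share a run of 11 bases, shown because these proteoglycans varied together over the libraries. The 30-base stretches are RefSeq, build GRCm38.p6, chr1:134037250-134037279 for Fmod and chr13:49607999-49608028 for Ogn, both on the plus strand and written 5′ to 3′, with the shared run in capitals.
Fmod: catcgctaacTTATTCAGCAGcaagagact
Ogn: ccctgaaactTTATTCAGCAGtttgaaaca
The run covers bases 7 to 17 after the start in Fmod, and in Ogn it runs from 6 bases before the start to base 5 after it. The start used for Ogn is that of its promoter entry, which lies before the gene start given above. The run occurred in 10 of 32851 windows (0.03044%). It was chosen after the sequences had been compared, and longer runs of 13 and 12 bases were shared by Igfbp2 with Col6a3 and by Col6a3 with Nupr1.

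Fmod was -0.10 on the log2 scale in HT over all treatments (adjusted p = 0.390, limma). Without HT fluoxetine male 2, its highest library, Fmod was -0.12 ± 0.056 (unadjusted p = 0.0435, adjusted p = 0.290, limma). Under fluoxetine Fmod was then -0.22 ± 0.097 (unadjusted p = 0.0312, adjusted p = 0.212, limma). Under vehicle, HT females had 632.4, 525.5, 819.2, 564.7 and 544.9 normalised counts, against 760.4, 711.7, 660.0, 791.2 and 723.4 in WT females. HT males had 477.4, 633.9, 539.0, 739.3 and 627.8, against 515.9, 706.2, 675.0, 796.3 and 651.2 in WT males. Most HT values were the lower ones, but both sexes overlapped, and the difference was -0.20 ± 0.097 (unadjusted p = 0.0403, adjusted p = 0.856, limma). Over all treatments Ogn, Dcn and Lum stood at 0.02, 0.07 and 0.00.

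Col1a1 (ENSMUSG00000001506; chromosome 11, 94936224 to 94953042, plus strand) and Col1a2 (ENSMUSG00000029661; chromosome 6, 4504814 to 4541544, plus strand) encode the 2 chains of type I collagen. Over all treatments they stood at 0.06 and 0.01 on the log2 scale in HT, with adjusted p of 0.802 and 0.954 by limma. Under fluoxetine, Col1a1 had 462.2, 2112, 498.7, 597.8 and 658.8 normalised counts in HT males, against 497.9, 506.6, 672.4, 504.4 and 650.7 in WT males. Apart from male 2, the HT males lay within or just below the range of WT males. The Col1a1 difference under fluoxetine was 0.16 ± 0.146 with that library and -0.04 ± 0.0999 without it, so its direction rested on 1 library. Col1a2 turned likewise, at 0.05 with the library and -0.10 without it.

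Col6a3 (ENSMUSG00000048126; chromosome 1, 90765923 to 90843971, minus strand) encodes the longest chain of type VI collagen. Its normalised counts ran from 101.4 to 244.1 with a median of 166.9 in HT, against 88.5 to 213.1 with a median of 142.8 in WT. The ranges overlapped, and 20 of 30 HT libraries lay above the matching WT mean. The difference was 0.16 ± 0.074 (unadjusted p = 0.0372, adjusted p = 0.298, limma).

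Read together, 6 of the 9 genes lay above 0 and 3 below in HT over all treatments, where 50% of tested genes lay above, with a median log2 difference of 0.01, beside -6e-06 over all tested genes. That count rested on 1 library. Without HT fluoxetine male 2, Ogn, Lum, Col1a1 and Col1a2 lay below 0, at -0.001, -0.03, -0.008 and -0.04. Dcn and Col6a3 stayed above 0, at 0.05 and 0.15, and Nupr1, Igfbp2 and Fmod stayed below. Under vehicle 2 lay above and 7 below, where 49.4% of tested genes lay below, with a median of -0.07, beside 0.00098 over all tested genes. The other leptomeningeal markers lay below 0 in 16 of 24 cases (median -0.08), the choroid plexus markers in 8 of 8 (median -0.56) and the olfactory bulb markers in 8 of 8 (median -0.96), with none called, and their part in the members' values was not tested.

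**Figure D3:**
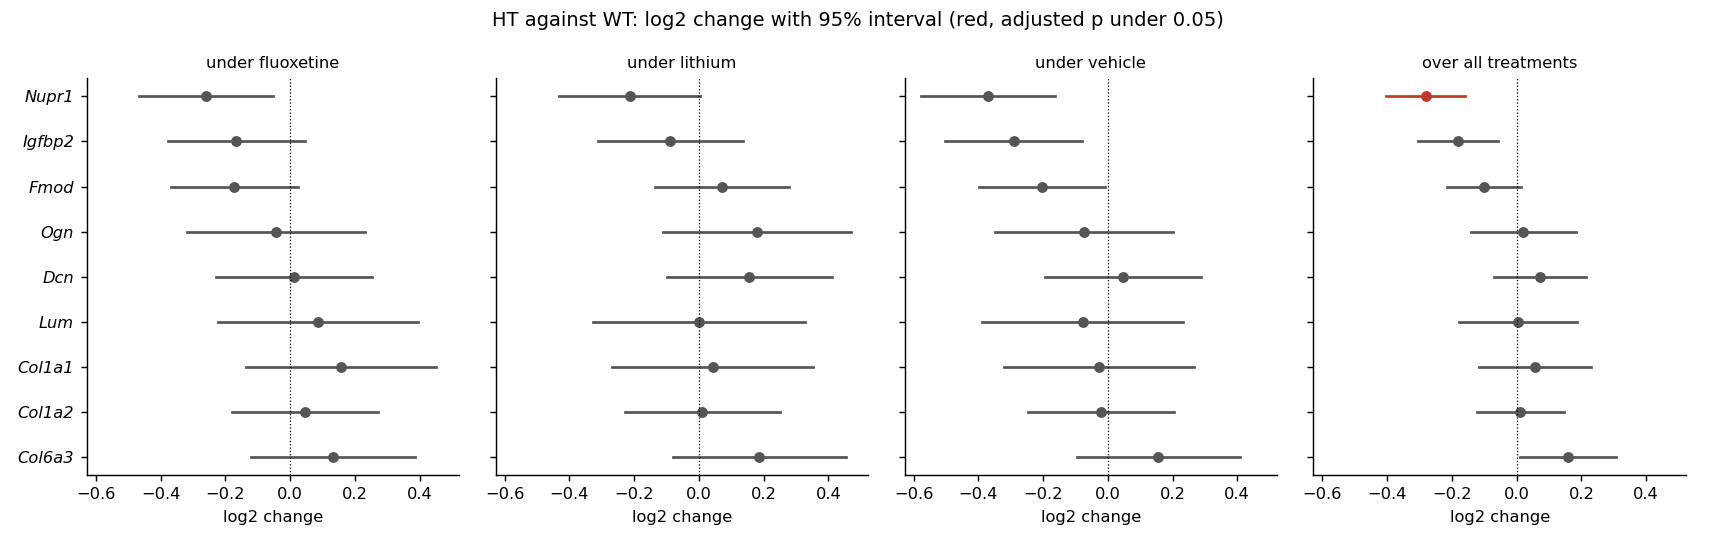
Log2 difference of each gene, HT against WT, under fluoxetine, lithium and vehicle and over all treatments. Points are limma estimates, bars are 95% intervals and red marks an adjusted p under 0.05. The 1 red point is Nupr1 over all treatments (-0.28).

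Neither drug moved any of the 9 genes past the threshold. None was called for fluoxetine against vehicle over both genotypes, where 2.55% of tested genes were called, or for lithium against vehicle, where 2.67% were called. Within one genotype the called share was 0% for fluoxetine in HT, 0.367% for fluoxetine in WT, 0.385% for lithium in HT and 0.0301% for lithium in WT, and no member was among them. At an unadjusted p under 0.05, fluoxetine in HT gave none of the 9, against 9.19% of tested genes. Both drugs were compared with the same vehicle libraries.

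Among the 9 genes, Col6a3 had the lithium difference farthest below 0, and it did not pass. Its normalised counts ran from 88.5 to 244.1 with a median of 136.7 in the 18 lithium libraries, against 126.4 to 213.1 with a median of 161.9 in the 20 vehicle libraries. The lithium range enclosed that of vehicle, and 14 of 18 lithium libraries lay below the matching vehicle mean. The difference was -0.23 ± 0.092 (unadjusted p = 0.0174, adjusted p = 0.177, limma). With the mean log2 level of the mural and endothelial markers as a covariate it was -0.13.

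Nupr1 stood at 0.16 ± 0.075 under lithium over both genotypes (adjusted p = 0.257, limma) and at 0.14 ± 0.072 under fluoxetine (adjusted p = 0.305, limma). In HT alone lithium gave 0.24 ± 0.102 (unadjusted p = 0.0246, adjusted p = 0.319, limma). HT lithium females had 136.7, 199.3, 177.6, 229.3 and 239.0 normalised counts, against 179.4, 208.8, 212.3, 121.7 and 195.6 in HT vehicle females. HT lithium males had 192.9, 195.5, 266.3, 180.8 and 207.5, against the 5 HT vehicle males given above, of which the highest was 175.4. The males did not overlap, and the females did.

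Fmod had lower values under lithium in WT but did not pass. WT lithium females had 560.9, 519.3, 713.6 and 568.8 normalised counts, and WT lithium males 512.7, 559.9, 657.4 and 700.1. Of these 8 libraries, 7 lay below the matching WT vehicle mean, though each sex overlapped with vehicle. The difference was -0.22 ± 0.103 (unadjusted p = 0.0341, adjusted p = 0.477, limma). The lithium difference in HT minus that in WT was 0.27 ± 0.141 for Fmod (adjusted p = 0.998, limma). That interaction lay above 0 for all 9 members and for 47.9% of tested genes, with a median of 0.11 beside -0.0054 over all tested genes. The 24 other leptomeningeal markers lay above 0 in 18 cases, with a median of 0.09, and the choroid plexus markers in 8 of 8, with a median of 0.97, and their part in the members' values was not tested. The interaction called 0 of all tested genes (609 had an unadjusted p under 0.05, 3.67%). For fluoxetine 7 of the 9 members and 49.5% of tested genes lay above 0, and the interaction again called 0 of all tested genes (793 had an unadjusted p under 0.05, 4.78%). That count also rested on HT fluoxetine male 2. Without it only Nupr1, Igfbp2 and Lum lay above 0, at 0.07, 0.05 and 0.06. The other members lay below 0, from -0.11 for Dcn to -0.01 for Col1a1.

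Igfbp2 stood at -0.15 ± 0.074 under fluoxetine over both genotypes (unadjusted p = 0.0518, adjusted p = 0.293, limma). For type I collagen, the fluoxetine difference in HT again turned on 1 library. Col1a1 stood at 0.24 ± 0.146 (adjusted p = 0.627, limma), and at 0.05 ± 0.0999 without HT fluoxetine male 2. Col1a2 stood at 0.13 ± 0.112 (adjusted p = 0.778, limma), and at -0.02 ± 0.077 without it.

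**Figure D4:**
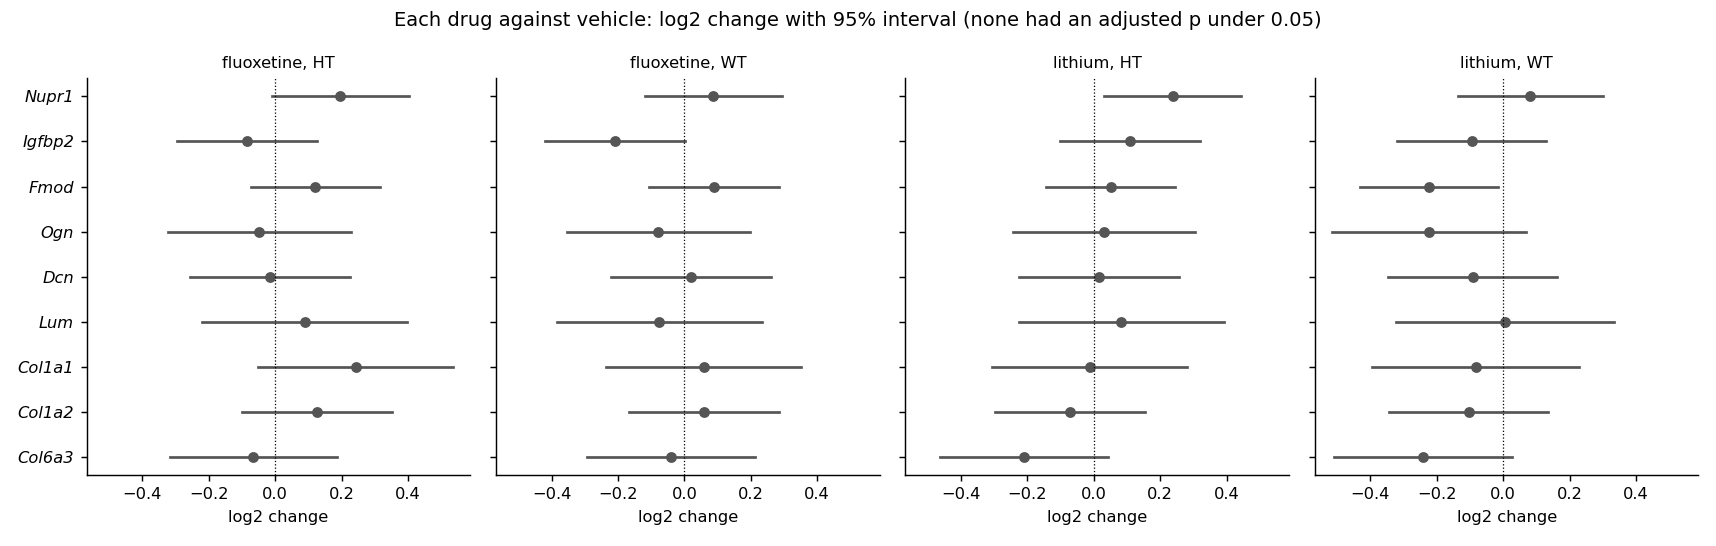
Log2 difference of each gene against vehicle, for fluoxetine in HT, fluoxetine in WT, lithium in HT and lithium in WT. Points are limma estimates and bars are 95% intervals, and none had an adjusted p under 0.05. The fluoxetine point of Col1a1 in HT (0.24) includes HT fluoxetine male 2, without which it was 0.05.

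Between females and males, 0.114% of tested genes were called and no member was. Igfbp2 stood at 0.13 ± 0.062 in females against males (unadjusted p = 0.0448, adjusted p = 0.652, limma) and Lum at -0.18 ± 0.091 (unadjusted p = 0.0590, adjusted p = 0.672, limma). Lum had its lowest group in HT fluoxetine females, with 54.1, 61.6, 57.5, 88.0 and 60.6 normalised counts, and its highest in HT fluoxetine males, with 86.2, 206.7, 102.2, 100.6 and 109.8. The groups overlapped only through female 4 and male 1. The fluoxetine effect on Lum in HT was -0.82 ± 0.307 in females minus males (unadjusted p = 0.0101, adjusted p = 0.887, limma), and -0.61 without male 2. The genotype effect under vehicle differed between the sexes for 0% of tested genes.

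The members varied together to different degrees. Each library's log2 level was set against the mean of its own group, and the 36 pairs of genes were correlated over the 58 libraries, with permutation p-values adjusted over the 36 pairs. Both Pearson's r and Spearman's rho passed for 22 pairs, and the median r was 0.37. Col1a1 and Col1a2 were the closest pair, with r = 0.89 and rho = 0.81 (adjusted permutation p = 4.5e-05 and 7.2e-05, the smallest that 100000 permutations could give here). The r was 0.80 without HT fluoxetine male 2 and 0.78 without the 2 libraries farthest from the median of Col1a1.

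Within the proteoglycans, Fmod and Ogn had r = 0.67 and rho = 0.66, Dcn and Lum r = 0.65 and rho = 0.50, and Ogn and Dcn r = 0.63 and rho = 0.63. Leaving out the 2 farthest libraries gave 0.68, 0.62 and 0.66. All of these passed with an adjusted permutation p of at most 0.00018. Nupr1 stood aside, with r between -0.14 and 0.34 against the other 8 genes, the highest being with Igfbp2. Col6a3 reached r = 0.45 with Igfbp2 and at most 0.31 with any other member. Its rho was 0.48 with Igfbp2, 0.43 with Col1a2 and 0.41 with Col1a1 (adjusted permutation p of at most 0.00322). With the remaining members its rho was at most 0.24. By Pearson's r the 9 genes did not vary as 1 group, and Nupr1 and Col6a3 were the least tied to the rest.

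**Figure D5:**
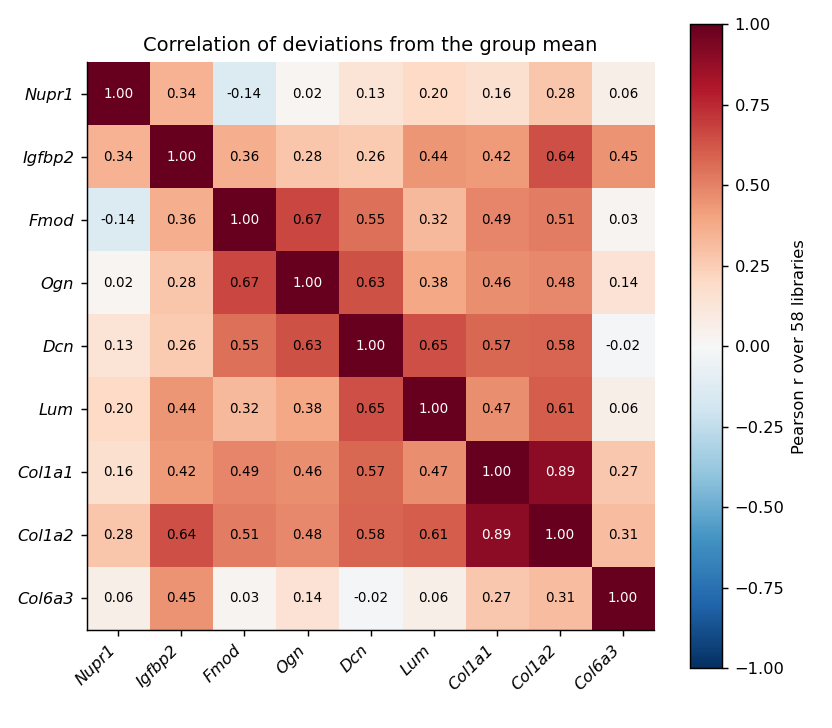
Pearson's r between the 9 genes over 58 libraries, each library taken as its deviation from its group mean on the log2 scale, with colour from blue (negative) to red (positive) and the value in each cell. Col1a1 with Col1a2 is the highest cell (0.89), and the row of Nupr1 is pale throughout (-0.14 to 0.34).

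The 10 genes most like the mean of the 9, by Pearson's r of the same deviations over the 58 libraries taken over genes averaging 50 or more, began with Col3a1 (0.75, or 0.67 without HT fluoxetine male 2), Serpinf1 (0.70), Bgn (0.69), Efemp1 (0.69) and Anxa2 (0.68). Cped1 and Nid1 (0.67 each), Aldh1a2 (0.67), which makes retinoic acid and marks leptomeningeal fibroblasts, and Mrc2 and Bmp6 (0.65 each) completed them. The 23 leptomeningeal markers at that level had a median r of 0.54, with a range from -0.26 for Cemip to 0.69 for Efemp1, beside a median of -0.017 over 13687 other genes. These libraries share dissection and depth, so the values describe how the tissue samples varied.

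For single members the nearest genes differed. They were Slc38a5 (0.59) and Slc25a18 (0.55) for Nupr1, and Igf2 (0.76) and Nid2 (0.68) for Igfbp2. Fmod was nearest to Slc6a13 (0.75) and Serping1 (0.72), Ogn to Anxa2 (0.71) and Serpind1 (0.69), Dcn to Aldh1a2 (0.76) and Serpinf1 (0.72), and Lum to Plekho2 (0.62) and Ifitm2 (0.58). Col1a1 was nearest to Col3a1 (0.69) and Col5a2 (0.63), and Col1a2 to Col3a1 (0.77) and Bgn (0.62). Col6a3 was nearest to Hspg2 (0.68), the gene of the basement membrane proteoglycan perlecan, and Itga10 (0.66). Slc38a5 is a glutamine transporter, and Igf2 is a growth factor that Igfbp2 binds.

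Among the other genes of the matrix, few were called between the genotypes. Of the 24 leptomeningeal markers outside the 9 genes, Cemip, which degrades hyaluronan, fell by 0.13 ± 0.033 in HT over all treatments (adjusted p = 0.0336, limma), a call lost without any 1 of HT fluoxetine female 4, HT vehicle female 2, HT vehicle female 5, HT vehicle male 1, WT fluoxetine female 3 and WT fluoxetine male 5. Of 15 other collagens, Col5a2, a chain that sits inside type I fibrils, fell by 0.20 ± 0.050 (adjusted p = 0.0297, limma). That call was lost without WT lithium female 3, and with the olfactory bulb covariate, where the difference was -0.13. Neither the 6 other small leucine-rich proteoglycans, nor the 20 genes of collagen processing, nor the 13 genes of transforming growth factor beta had a member called.

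Of the 10 genes of the insulin-like growth factor axis, Igfbp4 rose by 0.15 ± 0.030 in HT (adjusted p = 0.0063, limma), and this call held when each library was left out. Among markers of other cells, Frzb of the olfactory ensheathing glia fell by 0.38 ± 0.088 (adjusted p = 0.0166, limma), a call lost with the olfactory bulb covariate, where the difference was -0.23. None was called among the markers of choroid plexus (8), mural cells (9), endothelium (9), border-associated macrophages (7), arachnoid and dura (6), olfactory bulb (8), striatum (7), cortical excitatory neurons (7) or astrocytes (7).

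Over both genotypes, the stress-response genes beside Nupr1 were the list with the most calls under lithium. With lithium 4 of 11 rose over both genotypes, where 2.67% of all tested genes were called in either direction. The median over the 11 was 0.18. Ddit4, an inhibitor of growth signalling, rose by 0.35 ± 0.072 (adjusted p = 0.00439, limma), Sesn2 by 0.24 ± 0.046 (adjusted p = 0.00306, limma) and Atf4, the central factor of this response, by 0.18 ± 0.027 (adjusted p = 6.55e-05, limma). Chac1, which degrades glutathione, rose by 0.19 ± 0.051 (adjusted p = 0.0311, limma), a call lost without any 1 of HT lithium female 5, WT lithium female 1, WT lithium male 1 and WT lithium male 2. In HT alone, lithium gave calls for Atf4 (0.18 ± 0.037, adjusted p = 0.0171, limma) and Sesn2 (0.26 ± 0.063, adjusted p = 0.0348, limma), and in WT alone for Atf4 (0.19 ± 0.039, adjusted p = 0.0392, limma). Leaving out 1 library ended the Sesn2 call in HT in 13 of 20 fits and the Atf4 call in WT in 13 of 18 fits, with log2 differences from 0.23 to 0.29 and from 0.17 to 0.23, and the Atf4 call in HT in none of 20. Nupr1 itself, at 0.16 over both genotypes, was not called. With fluoxetine none of the 11 was called.

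In the matrix lists, P4ha2, a collagen prolyl hydroxylase subunit, rose by 0.17 ± 0.042 under fluoxetine (adjusted p = 0.0212, limma). It rose by 0.15 ± 0.044 under lithium (adjusted p = 0.0424, limma), a call lost in 21 of the 38 fits that left out 1 lithium or vehicle library. Tgfbr2, a receptor of transforming growth factor beta, fell by 0.20 ± 0.039 under fluoxetine (adjusted p = 0.0057, limma). It fell by 0.14 ± 0.041 under lithium (adjusted p = 0.0403, limma), lost in 20 of 38 such fits. Under lithium none of the 15 other collagens was called, with a median of -0.13, where 2.67% of all tested genes were called. None of the 24 other leptomeningeal markers was called for either drug.

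A few vessel markers were called under each drug, where 2.55% of all tested genes were called for fluoxetine and 2.67% for lithium. The calls are of single genes, and under fluoxetine they went in both directions. Of 9 mural markers, Acta2, Myh11 and Rgs5 fell under fluoxetine by 0.38 ± 0.082, 0.33 ± 0.068 and 0.29 ± 0.074, with adjusted p from 0.00674 to 0.0235 by limma, and Acta2 fell by 0.41 ± 0.085 under lithium (adjusted p = 0.00473, limma). Of 9 endothelial markers, Slc2a1, the glucose transporter of the barrier, rose by 0.30 ± 0.059 under fluoxetine, while Kdr and Cdh5 fell by 0.34 ± 0.084 and 0.19 ± 0.049 (adjusted p from 0.00494 to 0.0264, limma). Under lithium Kdr fell by 0.33 ± 0.087 (adjusted p = 0.0308, limma). The Cdh5 call was lost without WT fluoxetine female 5, and the lithium call of Kdr without WT lithium female 1 or WT lithium male 3. Among cortical excitatory neuron markers, Rorb fell by 0.24 ± 0.060 under fluoxetine (adjusted p = 0.0234, limma). No other marker of these lists was called for either drug over both genotypes.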

How the data were processed

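RNA of mouse prefrontal cortex was sequenced in 58 libraries of 12 groups, which were taken from the sample titles. The authors deposited a linear signal, the read count of a gene after division by the size factor of its library. The tools named in the submitters' processing notes are Salmon 0.11.2, R 3.6.0 and DESeq2 1.19.11, with the build GRCm38. The handling of multi-mapped reads and of strand in counting was not given in the sources used here. All values (100%) equalled a whole number of steps of their library within 0.001, which gave back the reads, 22.9 to 35.0 M a library.

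GENCODE M21 matched 18077 of the 18088 gene IDs, and the other 11 were not named. The length of a gene was that of its longest protein-coding transcript. The 16606 genes averaging 10 or more were tested on log2(value + 1) by limma (3.58.1, R 4.3.3), allowing the variance to follow the mean. This scale understates the change of low genes. One model of the 12 group means had 46 residual degrees of freedom and served 14 comparisons, each the mean over females and males apart from those between the sexes. Benjamini-Hochberg adjustment ran over all tested genes, with 0.05 as the threshold. The method recovered known changes in simulated data, whose settings are not given here. That is no measure of its error in these libraries.

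The rule for named genes took the 9 members, Tbl1xr1, up to 3 genes of each list with the smallest p among those that passed, the 10 genes most like the mean of the members and the 2 most like each member. Chac1 as the fourth stress-response gene to pass, the genes of single libraries (Col3a1, H19, H2-Q7, Ttr, Igf2, Sparc, Ibsp, Alpl, Sp7 and Runx2), Trib3 and the holders of the motif were named after their values were seen. The members, lists and tests were chosen with earlier results of these data known. The lists of bone-forming cells and of class I histocompatibility and interferon-induced genes were added after the values had been seen. Alternatives were other pseudocounts (0.5 and 5), filters, scalings, weights, covariates and subsets, a replicate block, edgeR 4.0.16 and DESeq2 1.42.0 on the recovered reads, and each library left out. Leaving out both libraries that stand apart, or all vehicle groups, was chosen after seeing the data.

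Promoter sequences are RefSeq, GRCm38.p6. Of the 9 members 6 had an entry, with 7 windows, and Col1a1, Dcn and Lum had none. Replicate numbers did not pair the libraries, as the closing section shows.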

Additional observations from a re-analysis of the deposited data

Results flagged for a closer look

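In each of 108 sets of 1 gene and 1 group, the most extreme library was compared with its nearest neighbour by Dixon's ratio. In 14 sets (12.963%) the gap was past the 95% critical value, where chance gives about 1 in 20. The libraries below are named with their normalised count and, after it, the nearest count in the same group.

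HT fluoxetine male 2 accounted for 5 of these, with Col1a1 at 2112 (nearest 658.8), Col1a2 at 2973 (nearest 1118), Lum at 206.7 (nearest 109.8), Ogn at 456.8 (nearest 323.2) and Igfbp2 at 1167 (nearest 788.0). The pair of libraries rich in choroid plexus transcripts stood out as well. WT vehicle female 4 had Ogn at 509.4 (nearest 339.7), and HT lithium male 1 had Igfbp2 at 1277 (nearest 988.0).

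Other libraries stood above their group in 1 gene each. Ogn was 354.2 in HT fluoxetine female 2 (nearest 248.1), Lum was 88.0 in HT fluoxetine female 4 (nearest 61.6), and Col1a1 was 671.3 in HT lithium female 3 (nearest 523.5). The remaining libraries stood below their group. Fmod was 438.7 in HT lithium female 4 (nearest 607.8), Ogn was 166.2 in WT lithium male 1 (nearest 265.2), Lum was 59.3 in HT vehicle male 1 (nearest 84.5) and Col1a1 was 362.4 in WT vehicle male 1 (nearest 520.8).

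The effect of fluoxetine on Ogn in WT went in opposite directions in the sexes, with a log2 difference of -0.71 ± 0.273 in females minus males (unadjusted p = 0.0117, adjusted p = 0.365, limma). WT fluoxetine females had 284.0, 255.9, 203.7, 277.8 and 276.6 normalised counts, against 302.0, 339.7, 315.4, 509.4 and 314.6 in WT vehicle females, with no overlap. WT fluoxetine males had 394.1, 339.8, 331.8, 294.8 and 349.0, against 199.8, 391.5, 308.7, 344.9 and 208.3 in WT vehicle males, which overlapped.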

How the results depend on the processing

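The count of members called between HT and WT over all treatments was 1, and it was 0 in females alone (Nupr1 at -0.26, adjusted p = 0.441), in males alone (-0.30, adjusted p = 0.147) and with the vehicle groups left out (-0.24, adjusted p = 0.225), all fits with fewer libraries. In the other settings run Nupr1 was called. The replicate numbers of the titles do not pair the libraries, as same-numbered libraries had a median correlation of 0.00239 and others -0.00416. With a replicate block Nupr1 stood at -0.29 (adjusted p = 0.00985), and the block changed no member's call. In the other 13 comparisons 0 members were called in every setting. Some type I collagen differences turned in direction. Col1a1 between HT and WT under fluoxetine was -0.0444 in females alone and -0.0381 without both libraries that stand apart, and it ran from -0.0381 (without HT fluoxetine male 2) to 0.236 with 1 library left out. Under fluoxetine against vehicle in HT, Col1a1 was -0.0106 in females alone. Col1a2 was -0.0171 in females alone and -0.0244 without both, and ran from -0.0244 (without HT fluoxetine male 2) to 0.186 with 1 library left out. Igfbp2 between the genotypes had adjusted p from 0.0532 to 0.749, and Col6a3 under lithium from 0.0727 to 0.739. The shares of all tested genes called depended strongly on the setting. Over all treatments HT against WT gave 177 genes (7 to 369 by setting, 115 without WT lithium female 3 and 299 without HT vehicle male 5), fluoxetine over both genotypes 423 (4 to 886, and 225 to 719 with 1 library left out), and lithium 443 (0 to 1058, and 256 without WT lithium male 1). In 1 sex alone the genes of the lists that were called over all treatments or both genotypes lost the call, except Atf4 in males. P4ha2 under lithium was also lost under both other scalings and the block. No scaling moved the median of all genes by more than 0.023 on the log2 scale.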
